A study of Mus musculus with 167 samples.

Results

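The LAX tumours are asbestos-induced mesothelioma tumours from mice of the LAX strain of the Collaborative Cross, a panel of recombinant inbred mouse strains bred from 8 founder strains. They were compared with tumours of 6 other strains of the panel, CC001, CC021, CC036, CC058, GIT and Piping. The series holds 167 tumours of 119 mice from 35 strains, and 6 of the mice are LAX. Of these, 4 mice were compared (LAX-C2, LAX-F2, LAX-H1 and LAX-K2, 1 tumour each) with 19 mice (24 tumours), and LAX-E2 and LAX-G3, whose libraries are rich in liver and intestinal transcripts respectively, entered no fit. Every mouse was an F1 hybrid with a Collaborative Cross father and a MexTAg mother. The MexTAg transgene encodes the large T antigen of SV40 and is driven by the promoter of mesothelin, so that mesothelial cells of all groups alike make this oncogene. Each mouse received 2 injections of 3 mg of crocidolite asbestos into the peritoneal cavity, 1 month apart, and no therapy. LAX-C2 and LAX-F2 were labelled below median survival and LAX-H1 and LAX-K2 above it. Of the 19 mice of the other strains 5 were below and 14 above. CC001, CC021, CC036, CC058 and Piping had 3 mice each and GIT had 4. Age and sex were not given in the sources used here.

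Mesothelioma arises from the cells that line the body cavities, and a whole tumour also holds fibroblasts, vessels, immune cells and scraps of the organs on which it grows. Vimentin (Vim) is the intermediate filament of mesenchymal cells, and Axl is a receptor tyrosine kinase of mesenchymal and invasive tumour cells. Both mark sarcoma-like mesothelioma cells. T cells that enter a tumour release interferon gamma, which raises MHC class I, MHC class II and the chemokine Cxcl9 in the cells around them. The founders of the panel also differ in the MHC region and in where processed copies of genes sit in the genome, so a strain can carry a transcript that another lacks.

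The 28 libraries held 19880879 to 26260552 estimated counts (median 23243384). Tumours of a mouse were summed, and levels are given in normalised CPM, the counts scaled to a common library size. Across these 23 mice the biological coefficient of variation had a median of 46.5%. The strains were chosen for a shared low level of kidney transcripts, so its presence in the counts restates that choice. Umod, the urinary glycoprotein of kidney tubules, lay between 3.72 and 14.6 CPM in the 4 LAX mice and between 2.31 and 6.90 CPM in the 19. With all 119 mice scaled together its median in the 94 other mice was 0. On that scale genes of other organs differed too. The intestinal gene Sis had a median of 3.33 CPM in the 19 mice and 0.0787 CPM in the 94. The albumin gene Alb had medians of 316 and 50.6 CPM. The LAX libraries carry the numbers 37 to 42 in their titles and those of the other strains 43 to 71, apart from 1 library of CC001-H2 numbered 30. What this number stands for is not given, and strain and number cannot be told apart. Each p-value below measures a difference against the spread between these mice, and LAX is 1 strain. Y-linked genes differed between mice. Ddx3y, Kdm5d, Eif2s3y and Uty summed to 174, 230, 331 and 15.8 CPM in LAX-C2, LAX-F2, LAX-H1 and LAX-K2. In the 19 mice they summed to 8.95 to 410 CPM (median 15.7). Mean Ddx3y was 2.995 CPM in GIT and 3.349 CPM in Piping, against 28.5 (CC001) to 89.8 CPM (CC021) in the others. An alternative with Ddx3y as a covariate is described at the end.

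Of the marker genes, Vim was present at 2984, 1846, 853 and 1000 CPM in LAX-C2, LAX-F2, LAX-H1 and LAX-K2 (the order in which LAX values are given throughout), against 1471 to 4271 (median 2744) in the 19 mice. LAX-C2 and LAX-F2 lay inside that range and LAX-H1 and LAX-K2 below it. Axl stood at 459, 513, 217 and 216 CPM against 195 to 823, so that the 4 mice lay inside the range. Neither gene passed the test. The log2 difference of LAX minus the other strains was -0.82 ± 0.33 (SE; adjusted p = 0.137) for Vim and -0.48 ± 0.32 (adjusted p = 0.406) for Axl, by edgeR's quasi-likelihood test with Benjamini-Hochberg adjustment over all genes.

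Of 17950 genes tested, 1097 (6.11%) were higher and 217 (1.21%) lower in LAX at an adjusted p of at most 0.05, and the median log2 difference was -0.01. The groups did not overlap at all for 38 genes (0.212%) that were higher in the 4 LAX mice than in each of the 19, and for 25 genes (0.139%) that were lower. Against the strains taken separately in a second fit, LAX was higher for 87 genes (0.485%) and lower for 61 (0.34%) against CC001, and for 332 (1.85%) and a share of 0.847% against CC021. The counts were 53 (0.295%) and 40 (0.223%) against CC036, 762 (4.25%) and 273 (1.52%) against CC058, 276 (1.54%) and 107 (0.596%) against GIT, and 63 (0.351%) and 78 (0.435%) against Piping. These 6 contrasts share the LAX mice. Of all genes, 12 (0.0669%) were higher and 2 (0.0111%) lower in LAX against each of the 6 strains. Levels like those of LAX occurred elsewhere in the series. With all 119 mice scaled together, 16 of the 94 mice of the remaining strains stood above the lowest of the 4 LAX mice for Gm3272, 35 for Rps3a3 and 40 for H2-Ea-ps, all 3 among the 12 higher genes.

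Most of the 14 are processed copies of other genes, which arise when a messenger RNA is copied back into the genome. The highest was Gm3272, a processed pseudogene on chromosome 8 (92715747 to 92716975, GRCm38), at 262, 404, 352 and 384.5 CPM in the 4 LAX mice against 1.87 to 4.47 CPM (median 2.92) in the 19. No mouse of the 6 strains came near the LAX mice. The log2 difference was 6.90 ± 0.15 (edgeR adjusted p = 9.05e-21). Gm6180 (chromosome 8, 42246911 to 42247408), a copy close to the cofilin gene Cfl1, stood at 15.3, 12.4, 19.4 and 18.5 CPM against 0.0943 to 0.741. Gm5619, a copy close to Rpl7a sequences, stood at 23.01, 22.7, 36.1 and 30 CPM against 0.223 to 11.1 (median 0.593), again without overlap. Gm10704 went the other way. This copy close to Rtraf lay at 0.459, 0.491, 0.488 and 0.425 CPM in LAX against 4.89 to 12.9 CPM, with a log2 difference of -4.15 ± 0.30 (edgeR adjusted p = 3.12e-09). The other lower gene was Gm12345, close to the transcription factor gene Usf1, at 0 to 0.0446 CPM in LAX against 0.254 to 0.891 CPM. AK157302 stands close to the iron-sulfur assembly gene Isca1. It lay at 3.24 to 7.09 CPM in LAX and at 0 to 0.353 CPM in the 19 mice, while Rpl36-ps3, Gm41041, Gm6641 and Gm5814 were likewise higher without overlap at up to 7.06 CPM.

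**Figure D1:**
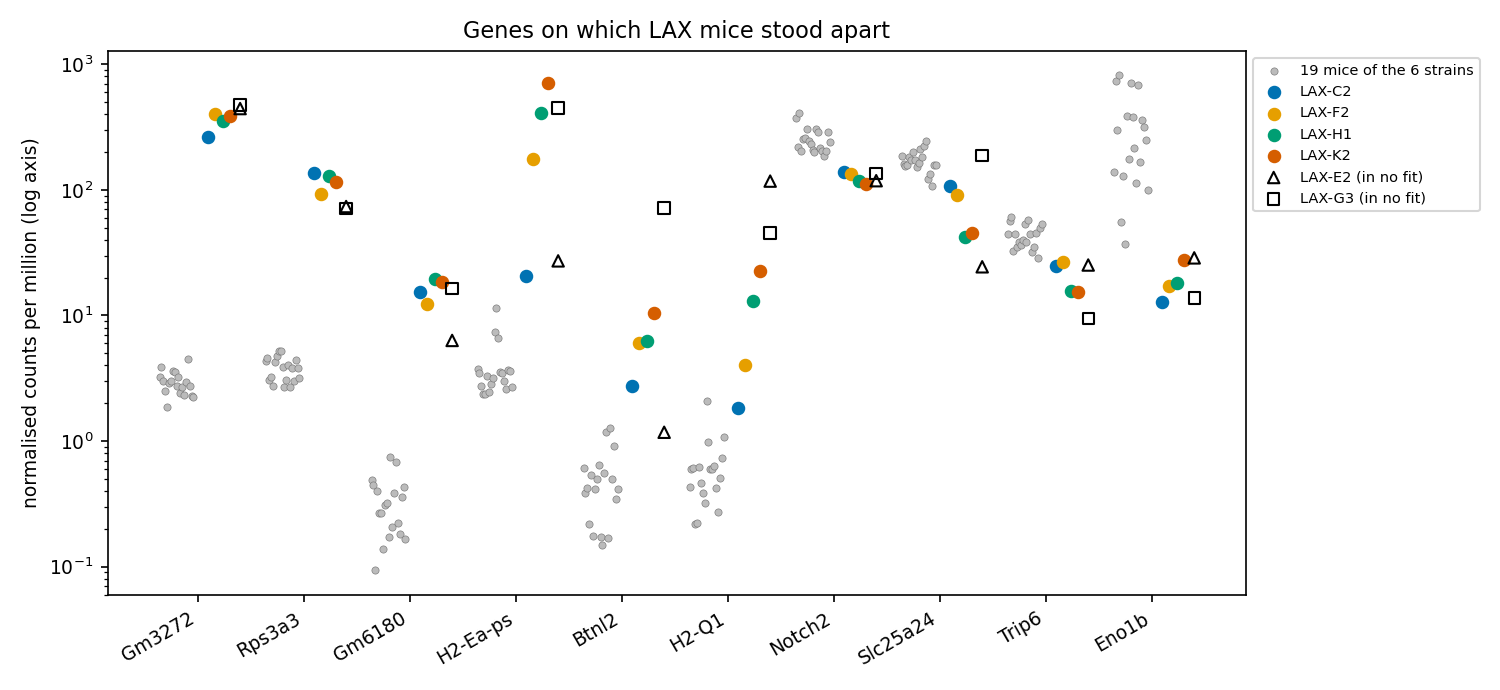
Level of 10 genes in each mouse, in normalised CPM on a log axis. Grey points are the 19 mice of the 6 strains, coloured points the 4 LAX mice and open symbols LAX-E2 and LAX-G3, which entered no fit; for Gm3272 the LAX points lie between 262 and 404 CPM and the grey points below 4.48 CPM.

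Such copies share sequence with their parent genes, and the authors' counting had to divide reads among them. Of the distinct 31-base words of Gm3272 in the GENCODE transcripts, 99.7% also occur in other genes, and 88.9% occur in the pseudogene Gm7336. Of those of Rps3a3, 78.4% do, and of Gm6180, AK157302 and Gm10704 61.1%, 75.7% and 61.7%. The closest genes did not pass the test. Cfl1 (log2 difference -0.48 ± 0.33, adjusted p = 0.417), Rtraf (0.20 ± 0.17, adjusted p = 0.537) and Isca1 (-0.35 ± 0.18, adjusted p = 0.275) are examples from edgeR's quasi-likelihood test.

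Rps3a3 (chromosome 13, 108670603 to 108671397), a processed copy of the gene for ribosomal protein S3a, shares most of its sequence with a gene of high level. It stood at 136, 93.1, 129 and 115 CPM in the LAX mice and at 2.71 to 5.21 CPM (median 3.81) in the 19. The 4 LAX mice lay far above all 19, with a log2 difference of 4.96 ± 0.15 (edgeR adjusted p = 1.27e-17). Over its whole length of 795 bases Rps3a3 differs from the parent gene Rps3a1 at 9 bases (98.9% equal), and over 792 bases it differs from the second copy, Rps3a2, at 9. A read can be told apart by sequence only where it covers such a base, and a stretch with 1 difference is shown to give the scale. The sequences are bases 245 to 274 of Rps3a3 and the matching bases of the other copies, read 5′ to 3′ from the GENCODE transcripts on GRCm38, with the differing base in capitals.
Rps3a3: gaaaattcaagctaaCcactgaggacgttc
Rps3a1: gaaaattcaagctaaTcactgaggacgttc
Rps3a2: gaaaattcaagctaaTcactgaggacgttc
Rps3a2 lay at 425, 274, 414.5 and 385 CPM in LAX. In the 19 mice it ran from 7.85 to 307 CPM (median 13.9), with the 3 CC036 mice between 294 and 307 CPM and CC001-H2 at 159.2 CPM, and its difference did not pass (2.51 ± 0.88, edgeR adjusted p = 0.0897). Rps3a1 lay at 441, 476, 663 and 663 CPM against 531 to 1460 CPM and did not pass either (-0.64 ± 0.25, adjusted p = 0.127). Summed over the 3 copies the LAX mice stood at 1002, 842, 1207 and 1163 CPM, inside the range of 606 to 1475 CPM (median 852) of the 19. The sum thus overlapped where the copy did not.

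Of the 12 genes higher against each strain, 3 lie in or beside the MHC region of chromosome 17, and 2 of these, H2-Ea-ps and Btnl2, share no 31-base word with another gene. H2-Ea-ps (34341959 to 34344645), annotated as a polymorphic pseudogene, encodes in strains with an intact copy the alpha chain that pairs with the product of H2-Eb1 in an MHC class II molecule. Its levels were 20.5, 176, 408 and 712 CPM in LAX against 2.36 to 11.5 CPM (median 3.32), with a log2 difference of 6.39 ± 0.41 (edgeR adjusted p = 2.92e-10). The lowest LAX mouse stood above the highest of the 19, and the range inside LAX was wide. Btnl2 (34354822 to 34369495), a butyrophilin-like regulator of T cell activation, lay at 2.76, 6.06, 6.23 and 10.5 CPM against 0.148 to 1.27 CPM and also did not overlap (3.64 ± 0.40, edgeR adjusted p = 3.77e-06). H2-Q1 (35320405 to 35325099), a class Ib MHC gene, lay at 1.84, 4.01, 13.02 and 22.6 CPM against 0.220 to 2.10 CPM. LAX-C2 lay inside the range of the 19 and the other LAX mice above it (4.05 ± 0.43, edgeR adjusted p = 3.04e-06), and 23.7% of the 31-base words of H2-Q1 occur in other genes, most of all in H2-Q2.

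The lower genes were fewer and their differences smaller. Notch2 (chromosome 3, 98013527 to 98150361), a receptor of the Notch pathway, lay at 138, 133, 118 and 111 CPM in LAX against 186 to 406 CPM (median 242), without overlap. The log2 difference was -1.03 ± 0.19 (edgeR adjusted p = 0.001) and it passed against 5 of the 6 strains. Slc25a24, a carrier of ATP and phosphate across the inner mitochondrial membrane, stood at 107, 91.6, 42.3 and 45.3 CPM against 108 to 244 CPM. Here LAX-C2 lay just under the lowest of the 19 (-1.26 ± 0.23, edgeR adjusted p = 0.000752). Trip6, a LIM domain protein of focal adhesions, lay at 24.9, 26.5, 15.8 and 15.4 CPM against 28.9 to 60.7 CPM (-1.07 ± 0.20, edgeR adjusted p = 0.00126). Phldb1, which anchors microtubules at the cell cortex, and Ubtd2 did not overlap either, with log2 differences of -1.21 ± 0.24 and -1.06 ± 0.22.

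Among the other lower genes chosen by lowest p, LAX and the 19 mice overlapped except for Eno1b. Plxna1, a semaphorin receptor, lay at 100.5, 90.9, 54.4 and 84.4 CPM against 97.0 to 310 CPM (median 171), so that LAX-C2 alone reached the range. Asns, which makes asparagine and is a target of the stress factor Atf4, lay at 12.9, 23.9, 20.03 and 15.4 CPM against 19.9 to 82.2 CPM. The log2 difference of Asns was -1.43 ± 0.32 (edgeR adjusted p = 0.00495). Glis2, a zinc finger protein, Farp1, an activator of small GTPases, and Dlg5, a polarity scaffold, fell by 1.13, 1.37 and 1.33 on the log2 scale, and these 3 did not pass without LAX-K2. Zfp985, a zinc finger gene of low level, lay at 0.292 to 0.803 CPM against 0.623 to 8.31 CPM. Eno1b, a retrogene close to the glycolytic enzyme gene Eno1, had the largest fall of the 12 named lower genes. Its levels were 12.7, 17.1, 18 and 27.8 CPM against 37.3 to 814 CPM (-4.08 ± 0.78, edgeR adjusted p = 0.00144). Since 81.8% of its 31-base words occur in Eno1, reads of these genes could be exchanged, and Eno1 did not pass (-0.56 ± 0.43, adjusted p = 0.483).

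Genes of T cells and cytotoxic lymphocytes rose as a group, in LAX-H1 and LAX-K2 far more than in the other mice. Of 23 list members tested 21 (91.3%) were higher, against 6.11% of all genes, with a median log2 difference of 3.59. The list's summed level was 21.7, 117, 1531 and 1342 CPM against 17.5 to 219 CPM (median 30.2), the highest of the 19 being Piping-I3. LAX-C2 thus lay below the median of the other strains, LAX-F2 inside their range, and LAX-H1 and LAX-K2 above it. In whole tumours, more or fewer cells of a type and more or less RNA per cell cannot be told apart. Cd3e, a chain of the T cell receptor complex, lay at 1.71, 9.81, 166 and 287 CPM against 1.10 to 18.2 CPM (4.96 ± 0.68, edgeR adjusted p = 5.66e-05). Icos, a costimulatory receptor, stood at 0.919, 2.99, 307 and 20.1 CPM against 0.465 to 7.06 CPM, and was highest in LAX-H1. Gzmb, a granzyme of cytotoxic cells, showed another order, with 0.752, 1.34, 4.28 and 113 CPM against 0.129 to 7.68 CPM, so that LAX-K2 alone left the range. Cd8a was 1.13, 10.9, 7.39 and 49.7 CPM against 1.37 to 19.5 CPM, and Cd4 5.09, 14.9, 46.9 and 80.1 CPM against 0.617 to 11.3 CPM. The 2 members that did not pass were Foxp3, the factor of regulatory T cells (0.45 ± 0.66, adjusted p = 0.737), and Ncr1, a receptor of natural killer cells (-0.37 ± 0.87, adjusted p = 0.849). Without both LAX-H1 and LAX-K2 none of the 23 passed by edgeR, and 0 did at an unadjusted p of 0.05; limma-voom on all 4 mice called 12 and DESeq2 20.

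Interferon gamma and antigen presentation genes were higher for 16 of 20 members (80%, against 6.11% of all genes), with a median log2 difference of 2.11. Their summed level was 1630, 3633, 10910 and 23510 CPM against 888 to 10810 CPM (median 2281), so that LAX-H1 stood barely above Piping-I3, the highest of the 19, and LAX-K2 more clearly. Cxcl9, which attracts activated T cells, lay at 5.09, 24.6, 92.2 and 1130 CPM against 2.21 to 70.7 CPM (4.36 ± 0.81, edgeR adjusted p = 0.0011). Ciita, the master regulator of MHC class II, lay at 3.47, 23.2, 62.6 and 289 CPM against 2.03 to 41.2 CPM (3.07 ± 0.62, edgeR adjusted p = 0.00243). The class II chain genes followed the same order of mice, H2-Aa at 50.8, 333, 859 and 1448 CPM against 31.1 to 763 CPM and H2-Eb1 at 42.1, 250.9, 711 and 1411 CPM against 17.8 to 566 CPM. Tap1, which pumps peptides for class I, and Psmb9, a subunit of the immunoproteasome, rose by 2.14 ± 0.48 and 2.63 ± 0.54. Of 13 class I and class Ib genes 6 (46.2%, against 6.11% of all genes) were higher. Among them was H2-K1 at 179, 341, 1217 and 2147 CPM against 70.8 to 874 CPM. Without LAX-K2, with the kidney list score as a covariate, and by limma-voom, 2 of the 13 passed in each case. H2-Q10, a secreted class Ib molecule made mainly by the liver, lay at 11.3, 51.2, 60.8 and 131 CPM against 5.14 to 24.9 CPM (2.54 ± 0.33, edgeR adjusted p = 3.14e-05). Of its 31-base words 30.3% occur in other genes, most of all in H2-Q7. Of the 13 genes that share at least 100 words with H2-Q10, 7 (53.8%) were also higher. How shared reads were divided among these genes was not tested. The interferon gamma result rests on LAX-K2. Without that mouse none of the 20 passed by edgeR (5 at an unadjusted p of 0.05), and with all 4 mice none did by limma-voom (15 at an unadjusted p of 0.05) while DESeq2 called 16. LAX-K2 also had the highest kidney list, described further down. With that list's score as a covariate none of the 20 passed by edgeR (10 at an unadjusted p of 0.05). That score nearly marks LAX-K2, so the covariate cannot separate kidney tissue from this mouse.

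**Figure D2:**
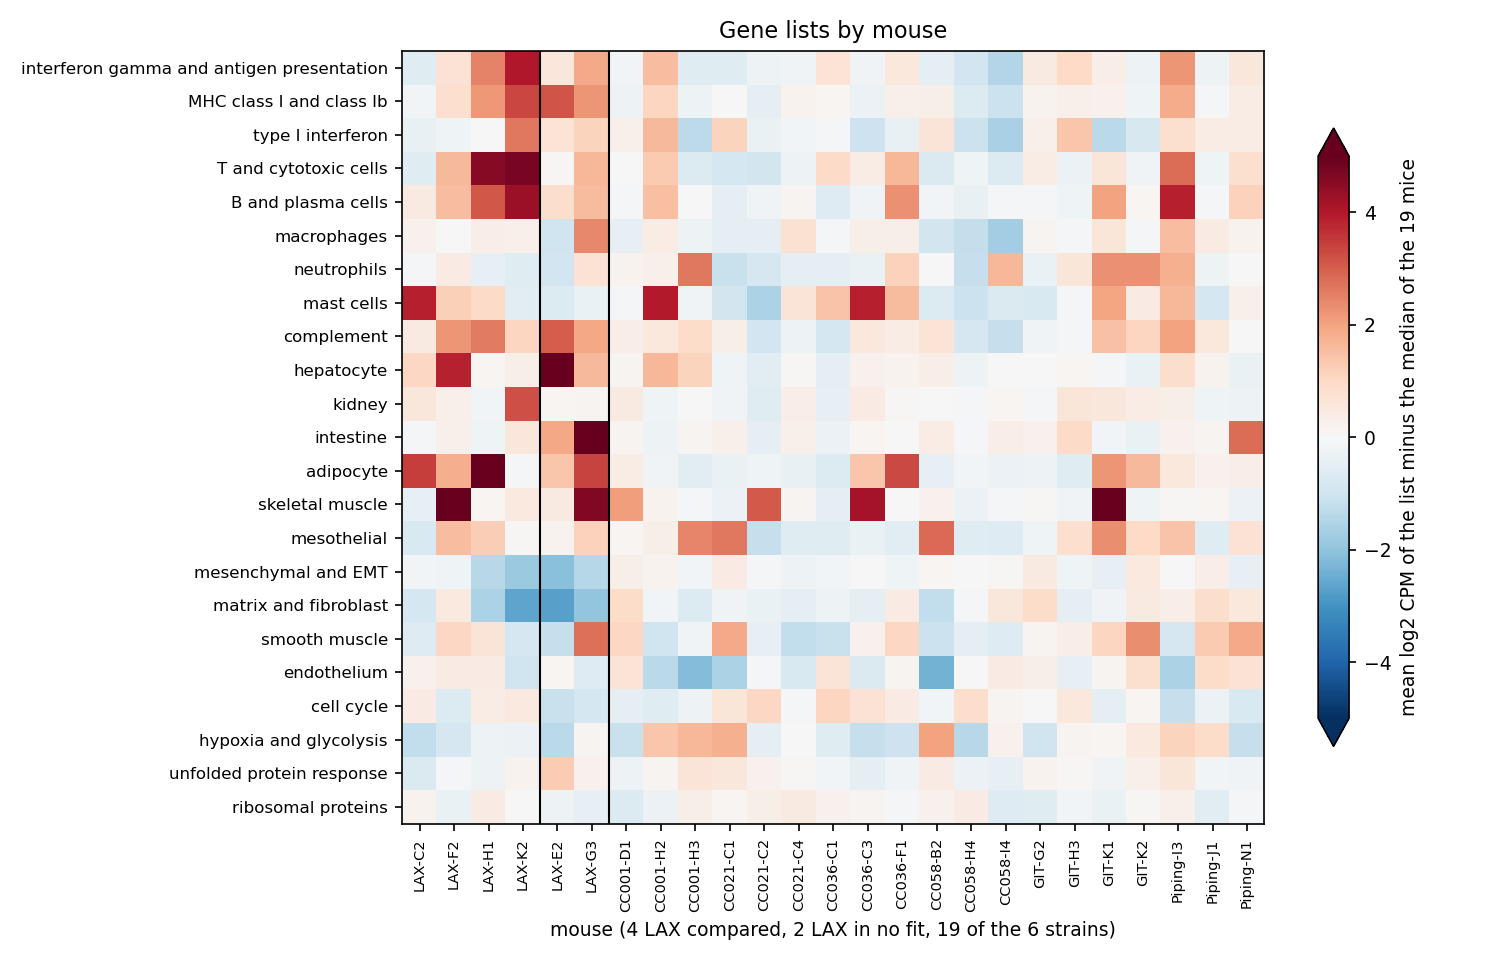
Mean log2 CPM of 23 gene lists in each mouse, centred on the median of the 19 mice of the 6 strains, red higher and blue lower. The T cell list is darkest in LAX-H1 and LAX-K2, with summed levels of 1531 and 1342 CPM, and the left-out LAX-E2 and LAX-G3 are darkest for the hepatocyte and intestine lists.

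Class II promoters are read by a complex of factors, RFX, CREB and NF-Y, which sit on neighbouring boxes and recruit Ciita. The box of NF-Y, the Y box, has the letters CTGATTGG. In the RefSeq promoter table of GRCm38.p6, 300 bases around each start, searched on both strands, these letters occur in 1346 of 32851 promoters (4.1%) and in 1271 of 27025 genes (4.7%). Of the interferon gamma list 14 genes have an entry and 8 hold the letters (57.1%), namely Cxcl9, Cxcl10, H2-Aa, H2-Eb1, Tap1, Psmb9, H2-K1 and H2-D1. A match is a description of the sequence and not a measured binding site. The stretches around the match are shown for H2-Aa and H2-Eb1, which rose with Ciita, and for H2-Eb2, a further class II beta chain gene chosen after its values were seen. They lie at chr17:34287829-34287934 on the minus strand, chr17:34305745-34305852 on the plus strand and chr17:34325512-34325619 on the plus strand, are written 5′ to 3′ on the gene's own strand, and have the letters of the motif in capitals.
H2-Aa: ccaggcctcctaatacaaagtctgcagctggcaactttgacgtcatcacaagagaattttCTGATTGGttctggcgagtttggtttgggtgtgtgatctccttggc
H2-Eb1: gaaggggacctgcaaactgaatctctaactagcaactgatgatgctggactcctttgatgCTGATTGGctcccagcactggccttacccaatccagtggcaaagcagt
H2-Eb2: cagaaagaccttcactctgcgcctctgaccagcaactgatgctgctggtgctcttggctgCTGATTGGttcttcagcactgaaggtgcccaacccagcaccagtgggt
The first base of the motif lies 51, 62 and 103 bases before the annotated start. H2-Eb2 stood at 0.919, 1.29, 5.36 and 40.6 CPM against 0.214 to 8.08 CPM (3.23 ± 0.75, edgeR adjusted p = 0.00803), with LAX-K2 alone above the range.

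B cell and plasma cell genes were higher for 6 of 15 members (40%, against 6.11% of all genes), with a median log2 difference of 1.93. Pax5, the factor that fixes B cell identity, lay at 0.877, 3.03, 19.9 and 203 CPM against 0.638 to 20.2 CPM, and Blk, a B cell kinase, at 0.501, 1.69, 7.91 and 133 CPM against 0.0925 to 7.47 CPM. LAX-K2 was the outlying mouse in both, and none of the 15 passed without it by edgeR (0 at an unadjusted p of 0.05). With the kidney list score as a covariate none of the 15 passed by edgeR either (3 higher at an unadjusted p of 0.05), and limma-voom called 3. Fcrl5, an Fc receptor-like protein of B cells, lay at 0.752, 2.05, 10.99 and 110 CPM against 0.0846 to 2.44 CPM, LAX-H1 and LAX-K2 being above the range (5.19 ± 0.71, edgeR adjusted p = 5.66e-05). The list's summed level, which immunoglobulin constant genes dominate, was 996, 3121, 5548 and 6816 CPM against 373 to 12070 CPM (median 602), and Piping-I3 stood above the LAX mice. Of the chemokines, Ccl5 (3.42, 7.71, 28.1 and 506 CPM against 1.06 to 20.4) and Ccl19 (0.668, 1.87, 15.04 and 24.1 CPM against 0 to 1.58) were higher, 2 of 20 cytokine genes (10%, against 6.11% of all genes). Itgax, an integrin of dendritic cells and macrophages, was the 1 of 20 macrophage genes that rose (5%, no more than the 6.11% of all genes), at 12.8, 12.7, 48.2 and 174 CPM against 3.26 to 49.2 CPM.

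The lymphocyte receptor genes of LAX-H1 and LAX-K2 were concentrated on single V segments. A T or B cell joins 1 of many V segments to make its receptor, so a mixed population spreads its reads over many segments. In LAX-H1, 6639 of 6991 counts on the 35 Trbv segments of the T cell receptor beta chain fell on Trbv29 (94.96%, exact 95% interval 94.43 to 95.47%). In LAX-K2 the top Trbv segment, Trbv13-1, took 18.4% of 1238 counts. LAX-F2 had 106 Trbv counts and LAX-C2 6, and the 19 mice had 11 to 236 (median 30). Among the 4 of the 19 with over 100 counts no segment took more than 28.6%. In several of the 19 with fewer counts Trbv29 was also the top segment, at up to 61.5% of 13 counts in CC058-H4. In the alpha chain, Trav11d took 42.5% of 658 counts in LAX-H1 (38.7 to 46.4%) and Trav7-2 took 7.21% of 638 in LAX-K2. LAX-K2 was concentrated on the immunoglobulin side instead. Of its 37269 Ighv counts 94.5% fell on Ighv1-7, and of its 30435 Igkv counts 86.9% on Igkv4-59. The top segments of LAX-H1 took 19.1% of 18388 Ighv counts and 37.8% of 35170 Igkv counts, and those of LAX-F2 22.5% of 7311 and 25.8% of 13204. Concentration on 1 segment was not particular to LAX, since CC001-H2 had 78.9% of its Ighv counts on Ighv12-3 and 83.3% of its Igkv counts on Igkv4-91. The same segments were the top ones in other mice of the 19, such as CC001-H3 (49.5% and 52.6%) and Piping-I3 (26.95% and 28.2%). The intervals cover counting error only.

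The ends of the 3 dominant segments are shown because they carry the cysteine at which the variable loop of the receptor begins. They are the last 60 transcript bases of Trbv29 (chr6:41271394-41271881, plus strand), Ighv1-7 (chr12:114538495-114538965, minus strand) and Igkv4-59 (chr6:69438218-69438757, minus strand), from GENCODE on GRCm38, with the last in-frame cysteine codon in capitals. These are reference sequences and not those of the tumours' cells.
Trbv29: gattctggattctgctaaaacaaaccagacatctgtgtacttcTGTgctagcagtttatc
Ighv1-7: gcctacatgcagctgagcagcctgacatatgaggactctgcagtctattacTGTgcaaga
Igkv4-59: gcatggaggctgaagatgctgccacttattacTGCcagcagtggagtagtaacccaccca
Trbv29 lay at 0.125, 0.223, 249 and 1.16 CPM in the 4 LAX mice against 0.133 to 0.966 CPM. Ighv1-7 lay at 0.960, 0.981, 1.5 and 1360 CPM against 0.257 to 9.76 CPM. The constant gene Ighg3 was at 6.56, 243, 25.7 and 6645 CPM against 3.84 to 33.6 CPM, so LAX-F2 and LAX-K2 stood above the range. The other IgG constant genes Ighg1, Ighg2b and Ighg2c did not pass (edgeR adjusted p = 0.239, 0.202 and 0.223), and in LAX-K2 Ighm lay at 196 CPM against 53.5 to 3451 CPM in the 19 mice. Iglc3, a lambda light chain constant gene, reached 979 CPM in LAX-K2. Single genes followed LAX-H1 or LAX-K2 in the same way. Ccr9, a chemokine receptor of gut-homing lymphocytes and thymocytes, stood at 1.75, 1.83, 258 and 7.26 CPM against 0.988 to 3.61 CPM. Nefh, the heavy neurofilament chain, stood at 0.334, 0.491, 71.9 and 15.8 CPM against 0 to 1.27 CPM, and Myo3b, a class III myosin, at 0.626, 0.758, 9.79 and 85.2 CPM against 0.0858 to 2.94 CPM. Tbx21, the factor of T helper type 1 cells, lay at 0.418, 1.52, 38.2 and 36.2 CPM against 0.0494 to 2.39 CPM.

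**Figure D3:**
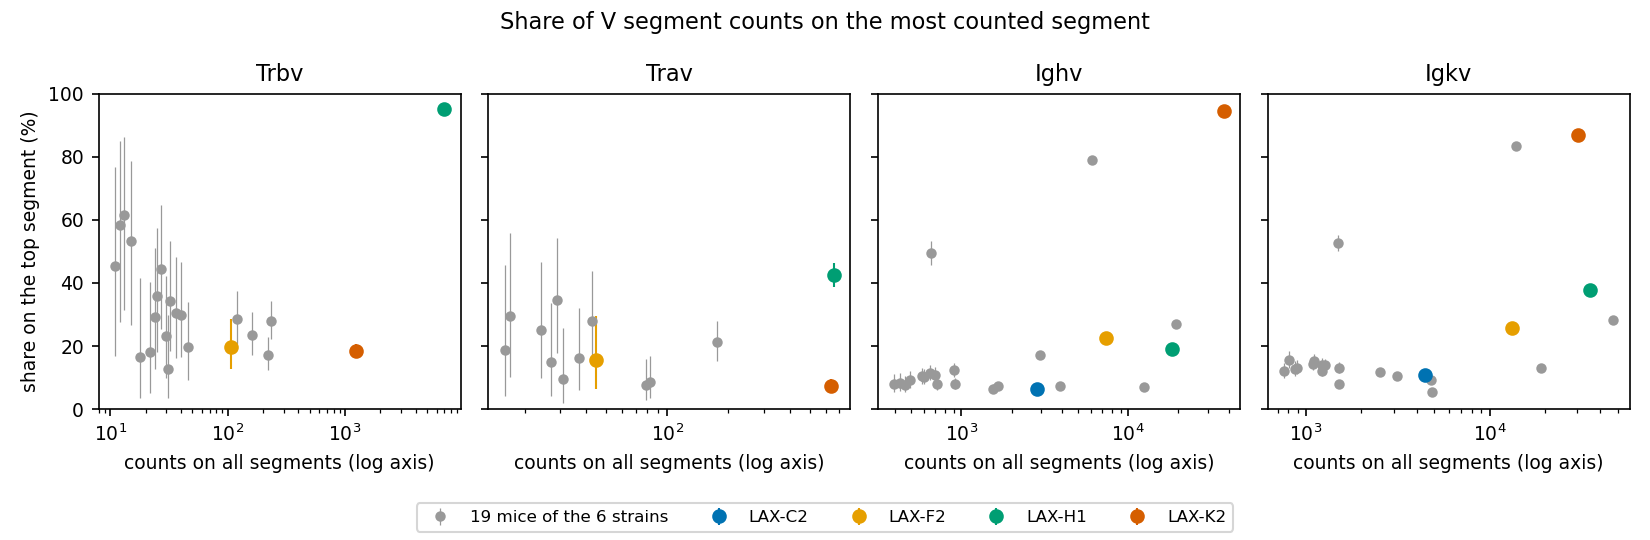
Share of the counts of a V segment family that falls on its most counted segment (vertical axis, percent) against all counts on the family (log axis), one panel for each family. Bars are exact 95% intervals, mice with few counts in a family are not drawn, and LAX-H1 stands at 94.96% for Trbv and LAX-K2 at 94.5% for Ighv.

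A further set of genes was high in LAX-H1 and LAX-K2 and at the level of the other strains in LAX-C2 and LAX-F2. Slc38a6 (chromosome 12, 73286779 to 73354049), a member of an amino acid transporter family, lay at 227, 264, 4142 and 3503 CPM against 116 to 423 CPM (median 200.2), with a log2 difference of 3.12 ± 0.40 (edgeR adjusted p = 2.92e-05). Rab3gap1 (chromosome 1, 127868773 to 127943868), a subunit of the activator of Rab3 GTP hydrolysis, lay at 111, 124, 905 and 1175 CPM against 84.5 to 188 CPM (2.36 ± 0.32, edgeR adjusted p = 5.66e-05). For both genes LAX-C2 and LAX-F2 sat inside the range of the 19 and LAX-H1 and LAX-K2 far above it. The genes sit on different chromosomes, yet their annotated transcripts share 707 31-base words, and 31.3% of the words of Slc38a6 occur in at least 1 of 2315 other genes. Of the 17 genes that share at least 100 words with Slc38a6, 6 were tested. Of these, 4 (66.7%, against 6.11% of all genes) were higher in LAX. Besides Rab3gap1 these were D10Wsu102e (331, 487, 2372 and 1987 CPM against 275 to 864), Olfr784 (11.9, 13.6, 122 and 48.9 CPM against 7.87 to 24.3) and Kif24 (8.19, 5.40, 32.03 and 24.02 CPM against 2.80 to 16.8). Lrrc8d and Abhd2 did not pass. Across all 119 mice of the series the same 8 mice were the highest for Slc38a6 and Rab3gap1, and Spearman's rank correlation was 0.675 over libraries whose shared words make these values dependent. How the authors' counting divided the shared reads was not tested, so the values cannot be assigned to the transporter or to Rab3gap1.

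**Figure D4:**
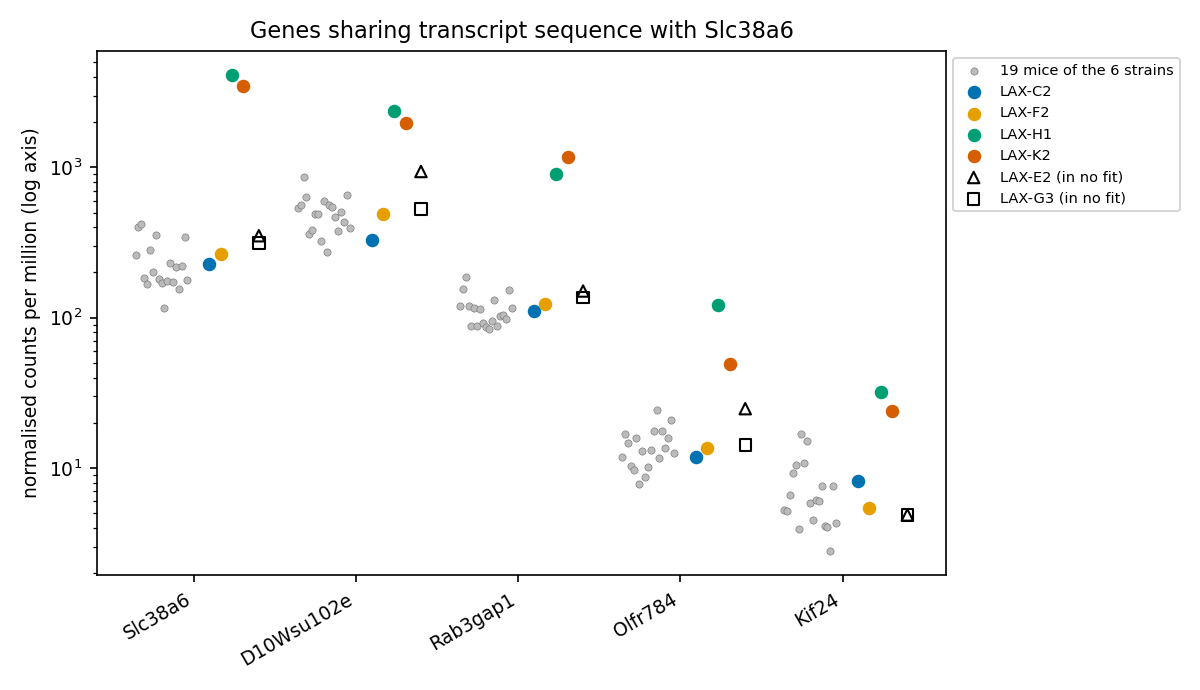
Level of Slc38a6 and of the 4 genes that share at least 100 of its 31-base words and were higher in LAX, in each mouse on a log axis. LAX-H1 and LAX-K2 stand above the 19 grey mice in each gene, while LAX-C2 and LAX-F2 and the left-out LAX-E2 and LAX-G3 do not for Slc38a6.

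Lists of other tissues also moved, each with its own mouse. Hepatocyte genes were higher for 15 of 16 members (93.8%, against 6.11% of all genes), with a median log2 difference of 1.69. Their summed levels were 642, 3698, 478 and 553 CPM against 359 to 1111 CPM (median 490). LAX-F2 alone left the range, and without LAX-F2 none of the 16 passed by edgeR (2 at an unadjusted p of 0.05). With all 4 mice DESeq2 called 6 of the 16 and limma-voom 1, and edgeR with survival class as a covariate called 4. Albumin (Alb) lay at 355, 2044, 312 and 376 CPM against 244 to 711 CPM, and Mup1, a major urinary protein of liver, at 6.85, 433, 2.59 and 3.01 CPM against 1.37 to 3.66 CPM. Serpina1e, an alpha-1 antitrypsin gene, followed with 26.4, 480, 10.3 and 11.9 CPM against 6.83 to 14.8 CPM. LAX-C2 exceeded the range for Mup1 and Serpina1e, at levels far under those of LAX-F2. Of the 31-base words of Mup1 70.2% occur in other genes, and of those of Serpina1e 54.2%.

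Adipocyte genes were higher for 9 of 10 members (90%, against 6.11% of all genes), with a median log2 difference of 3.77. Their summed levels were 401, 194, 3694 and 50 CPM against 26.7 to 338 CPM (median 63.2). LAX-H1 stood highest and LAX-C2 just above the range, and without LAX-H1 1 of the 10 passed, and limma-voom on all 4 mice called 3. Plin1, which coats fat droplets, lay at 17.7, 1.78, 290 and 0.618 CPM against 0.291 to 20.3 CPM. Fabp4, a fatty acid carrier, lay at 170, 82.3, 1527 and 16.2 CPM against 9.16 to 89.9 CPM. Pck1, an enzyme of glycerol and glucose synthesis in fat, liver and kidney, was the member that passed without any 1 of the LAX mice, at 18.5, 33.9, 154.6 and 4.29 CPM against 0.642 to 12.01 CPM. LAX-K2 was inside the range for these genes.

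Kidney genes were higher for 5 of 8 members tested (62.5%, against 6.11% of all genes), with a median log2 difference of 1.89. Their summed levels were 30.3, 13.8, 12.5 and 160 CPM against 8.55 to 23.8 CPM (median 14.8). Cdh16, the kidney cadherin, lay at 0.835, 0.535, 0.75 and 58.3 CPM against 0.401 to 1.27 CPM. Slc34a1, the phosphate carrier of the proximal tubule, lay at 0.710, 0.535, 0.938 and 17.8 CPM against 0.407 to 0.986 CPM. LAX-K2 was the outlying mouse for both, and without it none of the 8 passed by edgeR (1 at an unadjusted p of 0.05). With all 4 mice DESeq2 called 1 of the 8 and limma-voom 0 (4 at an unadjusted p of 0.05). The summed kidney level thus exceeded the range of the 19 in LAX-C2 and LAX-K2. LAX-K2 also led the interferon gamma list. The kidney list score was 3.237 in LAX-K2 and at most 0.624 in any other mouse compared. As a covariate it thus nearly marks LAX-K2 and cannot separate kidney tissue from that mouse. The part of kidney tissue in the LAX-K2 differences was not tested.

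Complement genes were higher for 5 of 15 members (33.3%, against 6.11% of all genes), and for 2 without LAX-H1 and 3 without LAX-K2. Cfi, the protease that inactivates C3b, lay at 5.68, 30.99, 23.6 and 6.80 CPM against 2.31 to 9.56 CPM (1.98 ± 0.34, edgeR adjusted p = 0.000463), so LAX-F2 and LAX-H1 stood above the range. C6, a component of the membrane attack complex, lay at 6.77, 19.9, 37.8 and 2.78 CPM against 0.869 to 11.9 CPM, and Cfb, a factor of the alternative pathway, at 34.2, 100.1, 126 and 448 CPM against 7.53 to 186 CPM. The 3 genes were thus led by 3 different mice. Cfi and Cfb are also made by the liver, and their levels in the liver-rich LAX-E2 were 2700 and 2059 CPM. Summed hepatocyte levels were 642, 3698, 478 and 553 CPM against 359 to 1111 CPM (median 490). LAX-F2 was thus highest for hepatocyte genes and LAX-K2 for Cfb. What part liver tissue had in the complement levels was not tested. Skeletal muscle genes were extreme in LAX-F2, with a summed level of 25020 CPM against 123 to 31460 CPM in the 19 mice, where GIT-K1 was highest, and 0 of 15 passed by edgeR (0 at an unadjusted p of 0.05; DESeq2 called 1).

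Against all mice of the other 34 strains in place of the 19, edgeR called 5 of the 23 T cell genes and 2 of the 10 adipocyte genes higher. In that comparison it called none of the interferon gamma (6 at an unadjusted p of 0.05), class I (1), B cell (0), complement (2), kidney (1) or hepatocyte genes (0), and the median of the hepatocyte list was -1.63 on the log2 scale.

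Genes of the mesenchymal tumour cell and its matrix did not pass by edgeR with the 4 LAX mice, although LAX-H1 and LAX-K2 lay low. Of 20 mesenchymal genes 0 passed by edgeR (4 lower at an unadjusted p of 0.05), with a median log2 difference of -0.80. DESeq2 called 1 lower and limma-voom 0 (9 lower at an unadjusted p of 0.05). By edgeR 5 were lower with all 6 LAX mice, 3 without LAX-C2, 1 without LAX-F2 and 0 without LAX-H1 or without LAX-K2. The summed level was 25540, 16340, 5706 and 3997 CPM against 12570 to 30460 CPM (median 17560), so that LAX-H1 and LAX-K2 lay below the range of the 19. Of 20 matrix and fibroblast genes 0 passed (2 lower at an unadjusted p of 0.05), with a median of -0.98. DESeq2 called 1 lower and limma-voom 0 (10 lower at an unadjusted p of 0.05). By edgeR 7 were lower with all 6 LAX mice, 6 without LAX-F2 and 0 without any other of the LAX mice compared. Their summed levels were 16140, 59830, 10030 and 4262 CPM against 12860 to 89530 CPM. The fits of all 6 LAX mice add LAX-E2 and LAX-G3, whose libraries are rich in liver and intestinal transcripts. In these 2 the mesenchymal list summed to 5858 and 6538 CPM and the matrix list to 4430 and 6757 CPM. What part organ tissue had in the calls with all 6 was not tested. In LAX-H1 and LAX-K2, where mesenchymal and matrix levels were low, the T cell list was highest. What part a different mix of cells had in either was not tested. Of 21 mesothelial genes 0 passed (3 lower at an unadjusted p of 0.05; DESeq2 called 2 lower), and the summed level of LAX-C2, 701 CPM, stood apart from 2963 to 3926 CPM in the other LAX mice. Of 30 cell cycle genes 0 passed by edgeR, DESeq2 or limma-voom (0 at an unadjusted p of 0.05), with a median of -0.02.

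The receptors related to Axl and their ligands are Tyro3 and Mertk, and Gas6 and Pros1, and 0 of the 5 genes passed by edgeR (1 at an unadjusted p of 0.05), DESeq2 or limma-voom. The level of Mertk, which clears dying cells in macrophages, was 80.8, 26.3, 33.7 and 78.1 CPM against 12.9 to 92.8 CPM. Gas6 stood at 86.7, 365, 307 and 41.5 CPM against 19.8 to 203 CPM, so LAX-F2 and LAX-H1 exceeded the range (1.13 ± 0.47, edgeR adjusted p = 0.161). Pros1, the other ligand, lay inside 52.6 to 304 CPM except in LAX-K2 at 50.1 CPM. Single members passed in a few more lists. Atf4, a factor of the stress response, was lower with Asns (2 of 16 unfolded protein response genes, 12.5%, against 1.21% of all genes), at 141, 177, 126 and 165 CPM against 175 to 447 CPM. P4ha1, a collagen prolyl hydroxylase induced by hypoxia, was lower (1 of 17 hypoxia and glycolysis genes, 5.88%, against 1.21% of all genes). The median log2 difference of those 17 was -1.05, and 7 were lower at an unadjusted p of 0.05 by edgeR. DESeq2 called 5 lower and limma-voom 1, while by edgeR 0 passed without LAX-C2, without LAX-H1 or without LAX-K2. Trp53inp1, a p53 target, and Gstt1, a glutathione transferase, were higher (1 of 16 and 1 of 15, 6.25% and 6.67%, about the 6.11% of all genes).

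How much of the calls a single LAX mouse carried differed widely. LAX-K2 was the highest of the 4 for 579 of the 1097 higher genes (52.8%), LAX-H1 for 315, LAX-F2 for 163 and LAX-C2 for 40. Without LAX-K2 634 of the higher calls (57.8%) did not pass, without LAX-H1 429 (39.1%), without LAX-F2 176 (16.04%) and without LAX-C2 41 (3.74%). Of the 217 lower calls 192 (88.5%) did not pass without LAX-K2 and 181 (83.4%) without LAX-H1. Genes that passed without each LAX mouse in turn numbered 187 higher (1.04% of all tested) and 22 lower (0.123%). Gm3272, Rps3a3, H2-Ea-ps, Btnl2, H2-Q1, Notch2, Slc25a24 and Trip6 were among these. So were Cd3e, Icos and Slc38a6, although their LAX-C2 and LAX-F2 values lay inside the range of the 19 mice.

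**Figure D5:**
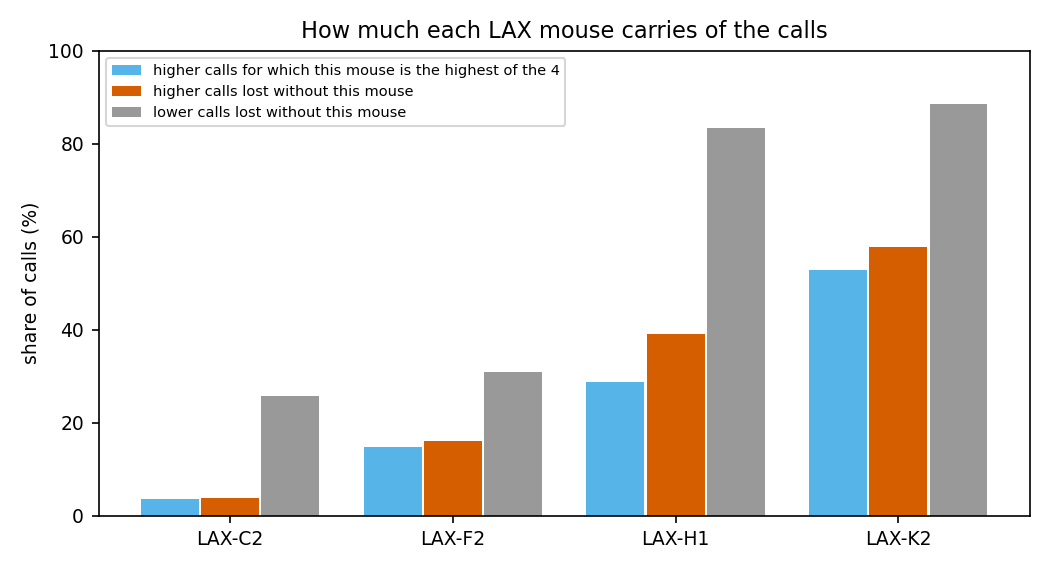
Bars give, for each LAX mouse, the percentage of the 1097 higher calls for which it had the highest level of the 4, and the percentages of the higher and of the 217 lower calls that did not pass when it was left out. LAX-K2 has the tallest bar of each kind (52.8%, 57.8% and 88.5%) and LAX-C2 the shortest.

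The survival classes inside LAX are 2 mice against 2, LAX-C2 and LAX-F2 below the median and LAX-H1 and LAX-K2 above it, with the spread taken from all 7 strains. In that contrast LAX-C2 and LAX-F2 were higher for 275 genes (1.53%) and lower for 386 (2.15%). Among those lower below the median were Rab3gap1 (-3.15 ± 0.30, edgeR adjusted p = 5.8e-05) and Slc38a6 (-3.96 ± 0.44, edgeR adjusted p = 0.000363). Fmnl1, a formin of blood cells, lay at 22.4 and 27.2 CPM below and at 180 and 146.1 CPM above the median, and Ikzf1, a lymphocyte transcription factor, at 19.4 and 31.8 CPM below and at 353 and 423 CPM above. The classes did not overlap in these genes. Of the T cell list 8 of 23 were lower below the median, and of the interferon gamma list 6 of 20, against 2.15% of all genes.

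Among those higher below the median were Hpx, the haem carrier made by the liver (31.5 and 85.3 CPM below, 6.45 and 7.57 CPM above), and Fgfr1, a fibroblast growth factor receptor (625 and 195 CPM below, 88.7 and 48.2 CPM above). Pcdhgc5, a protocadherin, and Uaca, a regulator of apoptosis, differed by 2.87 ± 0.47 and 2.33 ± 0.39. Hepatocyte genes were higher for 11 of 16 and mesenchymal genes for 4 of 20, against 1.53% of all genes. The mesenchymal genes were Fn1, Prrx1, Twist1 and Snai1. Fn1, the matrix protein fibronectin, lay at 17420 and 5187 CPM below against 1572 and 744.5 CPM above, and Twist1, a factor of mesenchymal identity, at 69.7 and 22.3 CPM against 8.59 and 6.10 CPM. Axl did not pass (1.17 ± 0.44, edgeR adjusted p = 0.147). The hepatocyte level below the median was that of LAX-F2 above all. In a fit of the 4 LAX mice alone 0 genes passed by edgeR in either direction (1286 higher and 1267 lower at an unadjusted p of 0.05), while the pooled fit gave 0 higher and 85 lower without LAX-K2, and 74 and 11 without LAX-C2. The class and the strain contrast share the LAX mice. Of the 1097 genes higher in LAX, 307 were lower below the median inside it and 50 higher, against 2.15% and 1.53% of all genes. A gene high only in LAX-H1 and LAX-K2 tends to enter both contrasts, so this overlap is not a separate result.

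The 2 left-out mice give the same measures in LAX tumours that no fit used, though their libraries hold much tissue of other organs. Gm3272 lay at 444 CPM in LAX-E2 and 474 CPM in LAX-G3, Rps3a3 at 73.7 and 70.9 CPM, Gm6180 at 6.33 and 16.5 CPM and H2-Ea-ps at 27.2 and 449.5 CPM, each above the highest of the 19 mice. Gm10704 at 1.08 and 0.642 CPM and Notch2 at 118 and 136 CPM lay below the lowest. Slc25a24 lay below the lowest in LAX-E2, at 24.4 CPM, but inside the range of the 19 in LAX-G3, at 187 CPM. Btnl2 reached 71.5 CPM in LAX-G3 but 1.18 CPM in LAX-E2, inside the range of the 19. Of the 36 called higher genes without overlap, 23 (63.9%) lay above the highest of the 19 in both left-out mice, against 5.8% of all tested genes. Of the 23 called lower genes without overlap, 15 (65.2%) lay below the lowest in both, against 6.78% of all tested genes. Over all 1097 higher calls the share was 13.04%. Cd3e stood at 2.17 and 7.62 CPM and Slc38a6 at 351 and 314 CPM in LAX-E2 and LAX-G3, inside the ranges of the 19 mice.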

How the data were processed

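RNA was sequenced from whole tumours with a strand-specific mRNA kit, per the labels' protocols. The authors deposited estimated counts per gene as whole numbers, with no normalization. The submitters' processing notes list kallisto 0.46.1 (pseudoalignment to transcripts), DESeq2, DESeq and GRCm38. For the annotation release and the settings the sources used here have no entry. The table holds 36118 genes, of which 35825 matched GENCODE vM21 by identifier. A second deposited table of 22049 genes, described as normalized, holds the same counts (100% of its cells exactly equal) and was not used. Of the 167 columns, 28 were used in the comparison.

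Counts of the tumours of a mouse were summed, so that the mouse was the replicate, and samples were grouped by the strain and survival class in the labels. Genes were filtered with filterByExpr, libraries scaled by TMM, and differences tested in R 4.3.3 with edgeR 4.0.16 (quasi-likelihood F-test, robust, two-sided, Benjamini-Hochberg over all tested genes, threshold 0.05). Levels are TMM-scaled CPM. LAX was compared with the 19 mice together, with each strain in a fit of 7 strains, and by survival class inside LAX with the spread pooled over the 7 strains. The script was tested on simulated data. For naming, the 12 genes with the lowest p on either side were taken, with an absolute log2 difference of at least 1, a mean of at least 2 CPM, the 4 LAX mice on the same side of the median of the 19 and no symbol of a predicted gene, then the genes called against all 6 strains, the 4 of lowest p in each direction by survival class, and members of the gene lists. Genes that share sequence with a named gene, receptor segments and constant genes, H2-Eb2 and Tbx21 were named after their values were seen. The members, gene lists, tests and alternatives were chosen with earlier results of these data known. The counts over gene lists cover all members tested, and some members are not reported here by name. Words of 31 bases were compared between GENCODE transcripts. A level of 3 counts corresponds to 0.0593 to 0.151 CPM in these mice. Alternatives were DESeq2 1.42.0, limma-voom (limma 3.58.1), other size factors, filters, covariates and comparators, 1 tumour per mouse, and leaving out mice or strains.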

Additional observations from a re-analysis of the deposited data

Results flagged for a closer look

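In groups of 4 mice, a value was singled out when its gap to the nearest of the others, over the whole range on the log2 scale, was above Dixon's 95% critical value for this size, which chance exceeds in about 1 group in 20. Of 75 LAX results examined 6 were singled out. LAX-F2 stood apart for Mup1, a urinary protein made by the liver, at 433 CPM, for the summed hepatocyte genes at 3698 CPM and for the summed skeletal muscle genes at 25020 CPM. LAX-C2 stood apart below the others for the summed mesothelial genes at 701 CPM and for the summed complement genes at 1049 CPM. LAX-K2 stood apart below the others for the summed endothelial genes at 298.5 CPM.

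Signals also appeared in the 2 LAX mice that entered no fit. The liver and intestinal transcripts are those for which these mice were left out, so their levels describe that choice and are not a separate result. Hepatocyte genes summed to 506200 CPM in LAX-E2, against at most 1111 CPM in the 19 mice of the other strains, and intestine genes to 10040 CPM in LAX-G3, against at most 3864 CPM. Dntt, the enzyme that adds untemplated bases to receptor genes of immature lymphocytes, lay at 286.8 CPM in LAX-E2, against at most 0.66 CPM in the 19 mice.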

How the results depend on the processing

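No paired analysis was possible because the replicate numbers of different strains only name mice in accession order and pair none of them. Against 1097 higher and 217 lower genes, the counts stayed within 1.5 times under other size factors, both other filters, the 7-strain fit, Ddx3y as a covariate, 1 tumour per mouse, CC081 added, and without any 1 of the 6 strains. DESeq2 gave 728 lower genes, limma-voom 489 higher, and survival class as a covariate 345 lower. The kidney list score as a covariate gave 477 higher and 25 lower, and all mice of the other 34 strains 262 and 20. All 6 LAX mice, with the liver-rich LAX-E2 and the intestine-rich LAX-G3, gave 2440 and 1140. Without each LAX mouse in turn the counts were 485 to 1496 higher and 25 to 515 lower, with the lowest without LAX-K2 (485 and 25), then without LAX-H1 (716 and 38), and the highest without LAX-C2. Chosen after the data were seen, leaving out LAX-F2 and LAX-K2 gave 393 and 20, and leaving out LAX-H1 and LAX-K2 gave 202 and 3. The causes were not tested.

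For single strains the calls of both directions were added. limma-voom gave 170 genes against CC021, 366 against CC058 and 178 against GIT, and no filter gave 219 against GIT. Without each LAX mouse in turn they were 100 to 829 against CC001, 210 to 1287 against CC021, 68 to 363 against CC036, 474 to 1949 against CC058 and 223 to 1039 against GIT, with the most in each case without LAX-C2. Against all 6 strains they were 10 to 57.

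By survival class inside LAX, no filter gave 440 genes in both directions together, against 661, and the 4 mice alone 0. Without each LAX mouse in turn the numbers were 85 to 453, with 85 without LAX-C2 or LAX-K2 and 249 without LAX-F2.

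Of 100 single genes followed, 71 lost their call with the sign kept against all mice of the other 34 strains. By limma-voom 36 did so, without LAX-K2 34, without LAX-H1 19 and with the kidney list score as a covariate 32. Leaving out both LAX-H1 and LAX-K2, 46 lost it in this way. Some single genes had the opposite sign under an alternative, none of them past the threshold there, and their log2 differences were as follows. Without LAX-H1 and LAX-K2 these were Myo3b -0.19, Pros1 0.32, Cxcl9 -0.041, Tap1 -0.10, Psmb9 -0.077, Gzma -0.39, Gzmb -0.73, Pax5 -0.65, Blk -0.12, Mzb1 -0.054, Ccl5 -0.050, H2-Q7 -0.11, H2-T24 -0.23, Cdh16 -0.22, Slc34a1 -0.17, Kap -0.33, Umod -0.21, Gstt1 -0.053, Itgax -0.13, Trbv29 -0.999, Ighv1-7 -0.69, H2-Eb2 -0.21, D10Wsu102e -0.29, Olfr784 -0.14 and Kif24 -0.086. Against all mice of the other 34 strains these were Gas6 -0.22, Pros1 0.27, Cfi -0.82, Alb -1.70, Ahsg -1.63, Kap -0.78, Umod -1.67 and Gstt1 -0.080. With the kidney list score as a covariate these were Mertk -0.053, Cdh16 -0.11, Kap -0.27, Umod -0.13 and Ighv1-7 -0.038. With CC081 added these were Cdh16 -0.23, Slc34a1 -1.76, Kap -2.90 and Umod -4.02. Without each LAX mouse in turn the ranges were -0.58 to 0.079 for Pros1, -0.16 to 4.67 for Cdh16, -0.28 to 2.05 for Kap, -0.12 to 0.76 for Umod and -0.44 to 8.22 for Ighv1-7, with the opposite sign without LAX-K2, and -0.018 to 1.38 for Alb, with the opposite sign without LAX-F2. Without LAX-F2 and LAX-K2 these were Alb -0.074, Kap -0.22, Umod -0.15 and Ighv1-7 -0.33. With Ddx3y as a covariate it was Pros1 0.029. With all 6 LAX mice it was Pros1 0.25. Without GIT it was Pros1 0.018. The causes were not tested.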
